A study of Mus musculus with 12 samples.

Results

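The genes described here are 48 type I interferon stimulated genes of the mouse, chosen by symbol and matched to the Ensembl IDs of the gene count table. The list leaves out the guanylate-binding proteins, the immunity-related GTPases, the IRF and STAT factors and the class I genes. All 48 were found among the 55414 gene IDs of the table, and all 48 were among the 14310 genes with enough counts to be tested. RNA came from macrophages isolated from the ischemic calf muscle of C57BL6J wild type mice, young adult males, after hindlimb ischemia, which was induced by tying and removing the femoral artery. Days post injury are written dpi. Cells were taken at 4 time points (1, 2, 4 and 7 dpi), each with 3 RNA-seq libraries, and no uninjured muscle or untreated macrophage was among the 12 libraries. Every group therefore shares the injury, and the comparisons are between time points. The sorting gate was t-CD45+CD11b+F4/80+CD64+. Its CD45 stain marks immune cells of the digested muscle and does not by itself leave out those still in vessels. Whether the 3 libraries of a time point come from separate animals or from pools is not given in the sources used here. The P values therefore describe how far these libraries scatter, and that scatter may be technical.

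Type I interferons are secreted proteins made when a cell senses foreign or misplaced nucleic acids. They bind the receptor made of IFNAR1 and IFNAR2, whose kinases JAK1 and TYK2 lead to the ISGF3 complex, with STAT2 and IRF9 among its parts. This complex binds a DNA element called ISRE in front of the stimulated genes. The proteins of these genes block viral RNA and its translation, sense nucleic acids, or tune the response itself, and macrophages carry many of them at a basal level without infection.

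Total counts per library were 19528316 to 33599472, of which a single gene took 14.8% to 55.7%. It had no symbol in the GRCm38 annotation used for names and is called the unnamed gene. Its share was 52.9% to 55.7% at 1 dpi, 40.3% to 46% at 2 dpi, 45% to 49.7% at 4 dpi and 14.8% to 30.1% at 7 dpi. The interferon-stimulated genes held 22484 to 126350 counts per library. Their share of the counts outside the unnamed gene was 0.246% to 0.382% at 1 dpi and 0.203% to 0.259% at 2 dpi, and it was 0.476% to 0.739% at 4 dpi and 0.533% to 0.680% at 7 dpi. In 47 of the 48 genes every library had a count, and the exception was Ifi44. Levels are given as CPM (each count relative to the total of its library, which is scaled by the TMM factors of edgeR), and as RPKM, which also divides by the exonic length, wherever genes are compared with each other. Counts do not mark the strand, and bulk libraries cannot tell fewer cells of a type from less RNA per cell. Of counts between 1 and 20, 76.6% to 85.5% per library were even, so a small count may stand for fewer fragments than it says.

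Several of these genes are near copies of a neighbour. Stretches of 100 bases of the annotated transcripts were compared between genes, and 9 of the 48 genes shared over 10% of theirs with another gene. Ifi211 shared 56.9%, most of it with Ifi205, and Oas1a shared 40.9% with Oas1g. Ifit3 shared 31.7% with Ifit3b. How reads that fit several genes were counted is not given in the sources used here, so the values of these genes are less certain than those of the 22 genes that shared none. Exons of 12 genes overlapped another gene, by up to 16.8% of their bases in Ifi35, and Parp9 and Dtx3l overlapped each other on opposite strands.

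The stretches in front of some of these genes are shown because the ISRE is the element through which interferon reaches them. They are the 200 bases before the annotated start, from the RefSeq promoter table of GRCm38.p6, written 5′ to 3′ in the direction of the gene. For Ifit3b and Bst2 the bases after this start were not found near the beginning of an annotated transcript, so their positions are less certain. Capitals mark the ISRE letters that were searched for, which are GAAA, any 2 bases and GAAA, or the same letters on the other strand, where they read TTTC, any 2 bases and TTTC. Ifit1 lies at chr19:34640689-34640888 (plus strand), Ifit3 at chr19:34583329-34583528 (plus strand), Ifit3b at chr19:34607757-34607956 (plus strand), Isg15 at chr4:156200819-156201018 (minus strand) and Rsad2 at chr12:26456453-26456652 (minus strand). Oas1g lies at chr5:120887614-120887813 (minus strand), and 2 genes that were not upregulated at 4 against 2 dpi, Oas1a at chr5:120907526-120907725 (minus strand) and Bst2 at chr8:71537473-71537672 (minus strand), are shown beside them.
Ifit1: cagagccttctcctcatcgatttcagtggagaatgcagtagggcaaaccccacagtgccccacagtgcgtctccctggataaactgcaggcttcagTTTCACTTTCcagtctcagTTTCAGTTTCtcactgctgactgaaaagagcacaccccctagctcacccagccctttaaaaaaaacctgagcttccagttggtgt
Ifit3: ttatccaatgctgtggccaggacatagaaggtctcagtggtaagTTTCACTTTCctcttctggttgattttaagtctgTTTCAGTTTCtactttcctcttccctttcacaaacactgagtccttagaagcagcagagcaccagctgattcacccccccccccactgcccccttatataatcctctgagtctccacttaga
Ifit3b: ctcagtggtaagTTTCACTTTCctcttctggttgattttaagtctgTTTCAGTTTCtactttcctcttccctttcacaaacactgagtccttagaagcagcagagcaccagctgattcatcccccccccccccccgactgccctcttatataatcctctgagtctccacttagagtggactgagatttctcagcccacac
Isg15: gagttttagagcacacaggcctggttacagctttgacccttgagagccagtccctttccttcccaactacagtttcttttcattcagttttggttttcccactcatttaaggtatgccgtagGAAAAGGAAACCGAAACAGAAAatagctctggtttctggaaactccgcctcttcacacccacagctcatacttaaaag
Rsad2: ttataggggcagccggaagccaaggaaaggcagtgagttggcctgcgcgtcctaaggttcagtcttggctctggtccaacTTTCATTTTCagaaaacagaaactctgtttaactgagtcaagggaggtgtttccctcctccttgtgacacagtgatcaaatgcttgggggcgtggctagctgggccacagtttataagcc
Oas1g: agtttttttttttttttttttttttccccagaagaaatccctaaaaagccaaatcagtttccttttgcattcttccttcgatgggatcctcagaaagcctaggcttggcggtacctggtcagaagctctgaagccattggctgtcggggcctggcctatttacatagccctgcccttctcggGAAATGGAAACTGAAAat
Oas1a: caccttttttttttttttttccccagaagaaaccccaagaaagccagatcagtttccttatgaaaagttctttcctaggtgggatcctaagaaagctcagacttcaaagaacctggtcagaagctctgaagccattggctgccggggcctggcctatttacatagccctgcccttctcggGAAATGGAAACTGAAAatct
Bst2: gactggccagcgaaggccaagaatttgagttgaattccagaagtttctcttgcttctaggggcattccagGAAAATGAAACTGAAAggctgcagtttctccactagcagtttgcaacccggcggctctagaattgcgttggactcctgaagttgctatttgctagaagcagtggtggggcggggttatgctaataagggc
In Isg15 the letters occur 3 times in overlapping copies, which show as a single run of capitals. Ifit3 and Ifit3b have a run of 119 identical bases in these stretches and both carry 2 separate copies. Oas1a and Oas1g have a run of 56 identical bases, and the capitals sit next to the start in both.

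The RefSeq table held a promoter for 37 of the 48 genes. In the window of 250 bases before to 50 after the start, 19 of these 37 (51.4%) had at least 1 match to the ISRE letters, against 1079 of 27025 genes (3.99%) in the whole table. Matches wholly before the start were found in 15 of the 37 genes (40.5%), between 3 and 188 bases before it, the farthest in Ifit3b. Among genes with a match, the starts of Ifi207, Ifit3b and Bst2, and 1 start of Trim30a, did not match the annotated transcripts. Among the largest changes reported below, Ifit2 and Ifi44 had no ISRE match in this window, which says only that these letters are not there. At 4 against 2 dpi, 14 of the 19 genes with a match and 14 of the 18 without one were upregulated, with a median log2 fold change (log2FC) of 1.65 and 1.87.

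**Figure D1:**
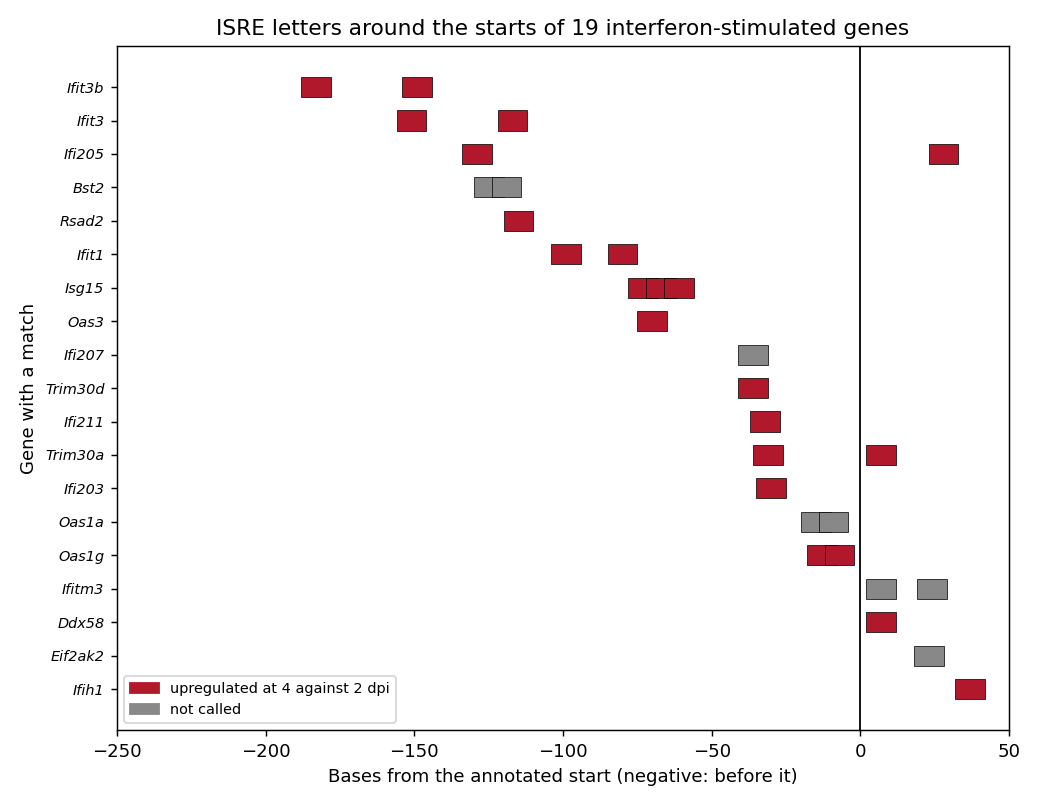
Position of the ISRE letters (boxes) relative to the annotated start (0, in bases) for the 19 interferon-stimulated genes with a match in the window of 250 bases before to 50 after it; the colour gives the call at 4 against 2 dpi. In 15 genes a box lies wholly before the start, and 5 of the 19 genes (grey) were not called.

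The levels of these genes were lowest at 2 dpi and highest at 4 or 7 dpi. The mean was lowest at 2 dpi for 44 of the 48 genes and at 1 dpi for the other 4, which were Eif2ak2, Bst2, Ifi44 and Lgals3bp. The highest mean fell on 4 dpi for 29 genes, on 7 dpi for 14 and on 1 dpi for 5. The median level over the 48 genes was 5.94 RPKM at 1 dpi and 2.97 RPKM at 2 dpi, and then 13.4 RPKM at 4 dpi and 10.5 RPKM at 7 dpi. Ifitm3 had the highest level at all 4 time points, with 543 RPKM at 1 dpi and 219 to 283 RPKM as the mean of each later time point. Lgals3bp, a secreted glycoprotein, was second at 4 dpi with 205 RPKM, and Ifi44 was lowest at 1 and 2 dpi with 0.0201 and 0.0873 RPKM. The mitochondrial share of the counts outside the unnamed gene was also lowest at 2 dpi, with 8.51% to 10.2% at 1 dpi, 4.77% to 5.36% at 2 dpi, 6.26% to 12.5% at 4 dpi and 6.62% to 18.9% at 7 dpi, and its part in the result was not tested.

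**Figure D2:**
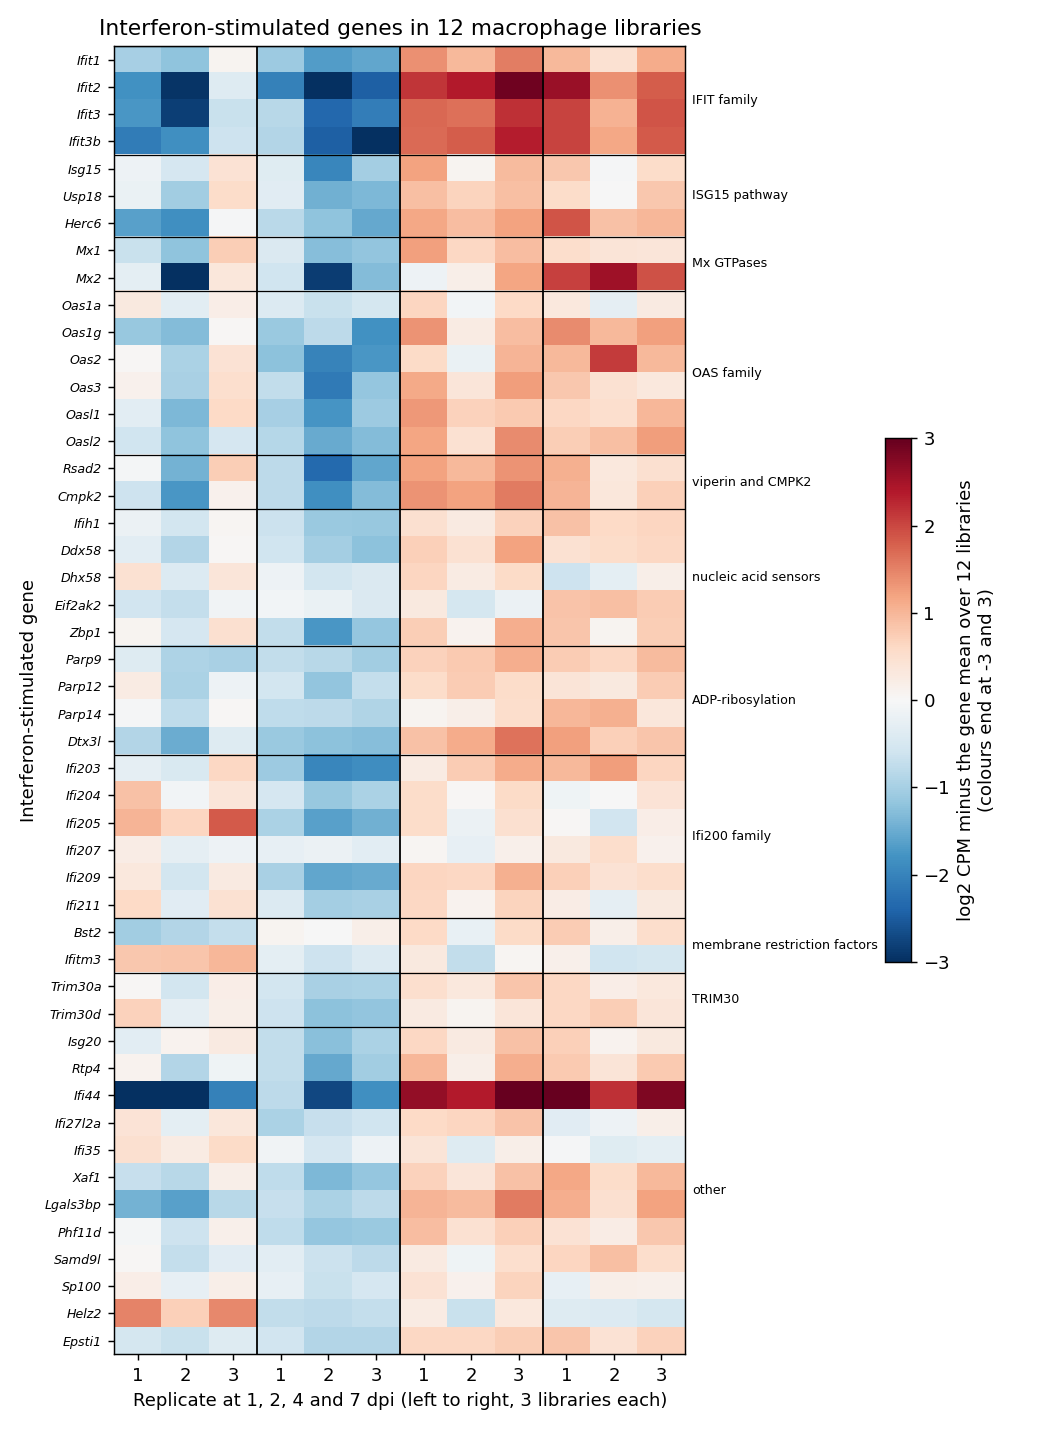
The 48 interferon-stimulated genes (rows, grouped by role) in the 12 libraries (columns, 3 replicates each at 1, 2, 4 and 7 dpi); the colour is the log2 CPM minus the mean of the gene over 12 libraries. Most rows are blue at 2 dpi and red at 4 and 7 dpi, while Ifi205, Ifitm3 and Helz2 are red at 1 dpi.

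From 2 to 4 dpi, 37 of the 48 genes were upregulated and none was downregulated. A gene is called here at a false discovery rate (FDR) under 0.05 and an absolute log2FC above 1 in edgeR's quasi-likelihood F test, with Benjamini-Hochberg adjustment over all 14310 genes. Of all genes tested, 8.02% were upregulated and 3.88% downregulated. The 37 genes are 77.1% of the list. All 48 log2FC were above 0, from 0.14 for Eif2ak2 to 5.08 for Ifit2, with a median of 1.75 against 0.04 over all genes. In 43 of the 48 genes all 3 libraries of 4 dpi lay above all 3 of 2 dpi, which was the case for 22.3% of all genes tested. No gene had an unadjusted P under 0.05 in the downward direction, and DESeq2 and limma-voom also called none down. Leaving out any of the 12 libraries gave 36 to 40 upregulated genes.

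From 1 to 2 dpi the direction was downward. In all, 13 genes (27.1%) were downregulated and 0 upregulated, beside 3.97% of all genes down and 5.09% up. The median log2FC was -0.74, against 0.01 over all genes, and 44 of the 48 values were below 0. The downregulated genes were Oas2, Oas3, Rsad2, Zbp1, Ifi203, Ifi204, Ifi205, Ifi209, Ifi211, Ifitm3, Trim30d, Isg20 and Helz2. At 2 dpi all 3 libraries lay below all 3 of 1 dpi in 17 genes, beside 18.5% of all genes. Upward, 2 genes had an unadjusted P under 0.05, and DESeq2 and limma-voom called none. With limma-voom 9 of the 13 downward calls were kept. The count of downregulated genes also rested on single libraries. It was 8 without 1 dpi replicate 1, 20 without 1 dpi replicate 2, 7 without 1 dpi replicate 3 and 7 without either replicate 2 or replicate 3 of 2 dpi. The calls kept in each of the 21 alternative fits were 5 (Ifi203, Ifi205, Ifi209, Ifitm3 and Helz2).

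From 4 to 7 dpi none of the 48 genes was called in either direction by edgeR, while 7.44% of all genes were upregulated and 5.2% downregulated. The median log2FC was -0.22, against -0.03 over all genes. At an unadjusted P under 0.05, 5 genes were higher at 7 dpi and 2 were lower. DESeq2 called 2 genes up (Mx2 and Eif2ak2) and limma-voom 1 (Mx2), and both called 0 down. Groups did not overlap in 4 genes that were higher at 7 dpi and 4 that were lower, beside 19.3% and 20.7% of all genes.

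Over the whole course, at 7 against 1 dpi, 20 genes (41.7%) were upregulated and 3 (6.25%) downregulated, beside 19.7% of all genes up and 14% down. The median log2FC was 0.88, against 0.16 over all genes. All 3 libraries of 7 dpi lay above all 3 of 1 dpi in 28 genes and below them in 4, beside 30% and 25.9% of all genes. This comparison shares no library with that of 4 against 2 dpi. Of the 37 genes upregulated at 4 against 2 dpi, 16 were also upregulated at 7 against 1 dpi, 20 were not called and 1 (Ifi205) was downregulated. Bst2, Eif2ak2, Mx2 and Samd9l were upregulated at 7 against 1 dpi and not called at 4 against 2 dpi. The difference between these comparisons was not tested.

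**Figure D3:**
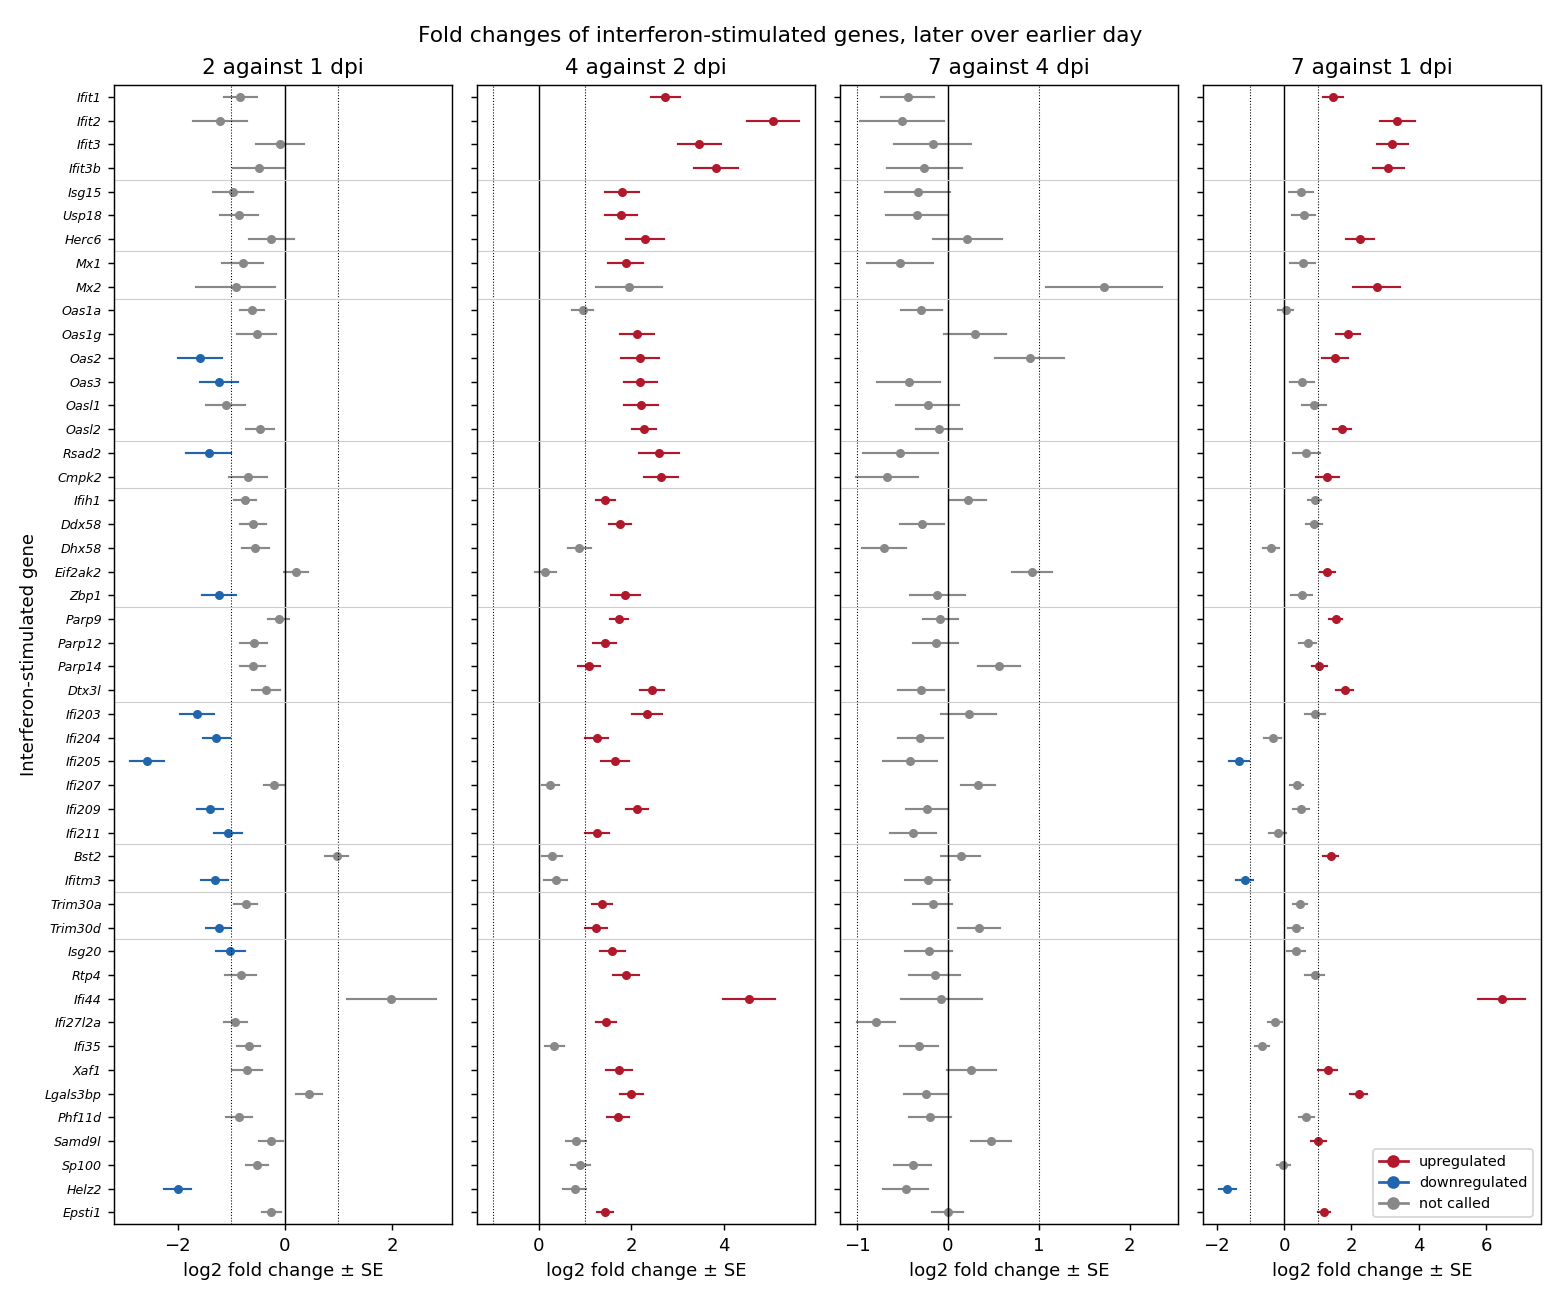
log2 fold change (point) with its standard error (bar) of the 48 interferon-stimulated genes in 4 comparisons, each later day over the earlier one; dotted lines mark a log2FC of -1 and 1, colours the call, and each panel has its own scale. At 4 against 2 dpi all 48 points are above 0 and 37 are upregulated, and at 7 against 4 dpi 0 are called.

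The IFIT proteins, which bind viral and unmethylated RNA caps and hold back translation, include the gene with the largest rise at 4 against 2 dpi, Ifit2. All 4 members were upregulated at 4 against 2 dpi and all 4 at 7 against 1 dpi. Ifit2 had 6.92, 3.12 and 18.6 CPM at 1 dpi, 5.93, 1.99 and 4.37 at 2 dpi, 107, 126.5 and 186 at 4 dpi, and 147, 63 and 85.55 at 7 dpi. No library of 4 or 7 dpi came near those of the first days. At 4 against 2 dpi Ifit2 rose 33.7-fold (log2FC 5.08 ± 0.56 (SE), adjusted p = 2.06e-05), and at 7 against 1 dpi 10.3-fold. Ifit3b, which had 20.6, 22.5 and 32.5 CPM at 4 dpi and 3.42, 1.09 and 0.717 at 2 dpi, rose 14.3-fold. Ifit3 had 101, 96.9 and 141 CPM at 4 dpi, against 17.1, 5.97 and 7.24 at 2 dpi, and rose 11.1-fold (3.48 ± 0.47, adjusted p = 0.000111). Its libraries at 1 dpi, with 9.04, 4.27 and 19.1 CPM, overlapped those of 2 dpi. Ifit1 rose 6.66-fold at 4 against 2 dpi, and the 4 log2FC at 7 against 1 dpi were 1.46 to 3.36. None of the 4 was called at 2 against 1 dpi (log2FC -1.21 to -0.09) or at 7 against 4 dpi (-0.51 to -0.17).

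Isg15, a ubiquitin-like protein that is joined to other proteins, Usp18, the protease that removes it and also dampens the interferon receptor, and Herc6, the ligase that attaches it in the mouse, were all upregulated at 4 against 2 dpi. Herc6, with the smallest P of the 3, had 11.3, 9.72 and 11.8 CPM at 4 dpi, against 2.85, 2.14 and 1.68 at 2 dpi (log2FC 2.30 ± 0.41, adjusted p = 0.00108). It was at 1.57, 1.35 and 4.94 CPM at 1 dpi and at 18.7, 9.27 and 10.2 at 7 dpi, and was the 1 gene of the 3 upregulated at 7 against 1 dpi (2.26). Isg15 had 33.4, 15.3 and 28.3 CPM at 4 dpi and 11.2, 3.68 and 7.1 at 2 dpi, a 3.49-fold rise. Its level at 7 dpi, 25.5, 14.3 and 21.4 CPM, overlapped that at 1 dpi, 13.1, 10.3 and 19.8 CPM (log2FC 0.51 ± 0.36, not called). Usp18 was similar, with 1.78 at 4 against 2 dpi and 0.58 at 7 against 1 dpi.

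Mx1 and Mx2 belong to a family of dynamin-like GTPases, and their RNA does not show whether a working protein was made. Mx1 had 22.5, 14.7 and 18.1 CPM at 4 dpi, against 6.99, 3.88 and 4.16 at 2 dpi, and rose 3.67-fold (1.88 ± 0.38, adjusted p = 0.00276). At 1 dpi it was spread over 5.97, 4.1 and 15.9 CPM, and at 7 dpi it had 13.7, 12.5 and 12.2. Mx2 followed another course, with its highest values at 7 dpi (5.1, 7.21 and 4.61 CPM) and 1.06, 1.33 and 2.77 CPM at 4 dpi. Its libraries at 2 dpi had 0.751, 0.0996 and 0.43 CPM and those at 1 dpi 0.943, 0.0821 and 1.52, which are as few as 2 counts. At 7 against 1 dpi Mx2 rose 6.72-fold (2.75 ± 0.69, adjusted p = 0.00362), while 4 against 2 dpi (1.95 ± 0.71, adjusted p = 0.0632) and 7 against 4 dpi (1.72 ± 0.64, adjusted p = 0.0575) missed the threshold.

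Most OAS proteins make the oligoadenylates that switch on RNase L, while Oasl1 lacks this activity and holds back translation of Irf7. Of the family, 5 of the 6 members rose at 4 against 2 dpi (log2FC 2.12 to 2.28), and Oas1a did not pass the threshold on the fold change (0.95, adjusted p = 0.00785). Oasl2 had 40, 26.3 and 42.4 CPM at 1 dpi, 33.1, 21.1 and 24.7 at 2 dpi, 138, 83.5 and 161 at 4 dpi and 100.4, 114 and 143 at 7 dpi. Its rise at 4 against 2 dpi was 4.86-fold (2.28 ± 0.27, adjusted p = 3.35e-05), and the groups of 4 and 7 dpi lay above all libraries of 1 and 2 dpi. Oas2, with 3.23, 1.84 and 2.22 CPM at 2 dpi against 7.78, 3.94 and 10.4 at 1 dpi, fell by 1.59 on the log2 scale, and it rose 4.57-fold at 4 against 2 dpi. At 7 dpi Oas2 had 15.1, 32.7 and 15 CPM, so that replicate 2 alone was about as high as both others together. Oas3 also fell at 2 against 1 dpi (-1.23), and its libraries at 7 dpi (61.1, 47.8 and 43.9 CPM) overlapped those at 1 dpi (38, 17.6 and 49.5 CPM). Oas1g, Oas2 and Oasl2 were upregulated at 7 against 1 dpi (1.51 to 1.89).

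Rsad2, or viperin, makes a chain-ending nucleotide, and Cmpk2, its neighbour on chromosome 12, is a mitochondrial nucleotide kinase. Both rose at 4 against 2 dpi by nearly the same amount, 2.60 ± 0.43 for Rsad2 and 2.64 ± 0.37 for Cmpk2. Rsad2 had 55.1, 21.5 and 95.25 CPM at 1 dpi, 33.3, 11.2 and 19.4 at 2 dpi, 131.5, 112.5 and 146 at 4 dpi and 121, 71.1 and 79.7 at 7 dpi. It fell by 1.42 at 2 against 1 dpi, a call that was lost in limma-voom and without any of 4 libraries (1 dpi replicate 1 or 3, 2 dpi replicate 2 or 3). Cmpk2 had 59.4, 53.9 and 68.7 CPM at 4 dpi, against 13.4, 6.37 and 9.32 at 2 dpi, and 47.1, 29.2 and 38 at 7 dpi, against 14.9, 6.81 and 25.1 at 1 dpi. Cmpk2 was upregulated at 7 against 1 dpi (1.29, adjusted p = 0.00649, not called without 1 dpi replicate 2), and Rsad2 was not (0.66, adjusted p = 0.195).

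Among the nucleic acid sensors, Ifih1 (MDA5) and Ddx58 (RIG-I) detect double-stranded and 5′-triphosphate RNA, Zbp1 detects Z-form nucleic acid, Dhx58 (LGP2) tunes the first 2 and Eif2ak2 (PKR) stops translation. Of these 5, 3 were upregulated at 4 against 2 dpi. Ddx58 had 61.6, 51.5 and 85.6 CPM at 4 dpi, against 24.5, 18.4 and 15.9 at 2 dpi (1.76 ± 0.25, adjusted p = 0.000151), and 51.2, 54.8 and 57.3 at 7 dpi, against 29.9, 20.3 and 38.1 at 1 dpi (0.89, below the fold threshold). Ifih1 rose by 1.43 and Zbp1 by 1.87 at 4 against 2 dpi, and Zbp1 fell by 1.23 at 2 against 1 dpi. Eif2ak2 differed in its course from the others, with 26.4, 14.9 and 18.9 CPM at 4 dpi and 20.2, 18.7 and 15.8 at 2 dpi, which overlapped. It reached 38.9, 39.8 and 36.2 CPM at 7 dpi, above all 9 other libraries (0.93 ± 0.22 against 4 dpi, adjusted p = 0.0073, just under the fold threshold), and was upregulated at 7 against 1 dpi (1.28). Dhx58 had its highest values at 4 dpi (47.4, 35.7 and 45 CPM) and 19.6, 24.6 and 34.3 CPM at 7 dpi, and it was not called in any of the 4 comparisons.

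Parp12 and Parp14 attach ADP-ribose to proteins, Parp9 belongs to the same family, and Dtx3l is the ubiquitin ligase that works as a pair with Parp9. Parp14, Dtx3l and Parp9 lie next to each other on chromosome 16. All 4 genes rose at 4 against 2 dpi, and Parp9, Parp14 and Dtx3l also at 7 against 1 dpi. Dtx3l had 19.6, 12.9 and 27.9 CPM at 1 dpi, 16.8, 15.4 and 14.9 at 2 dpi, 66.4, 78.6 and 112 at 4 dpi and 85.4, 59.4 and 64.9 at 7 dpi. Its rise of 5.46-fold at 4 against 2 dpi (2.45 ± 0.27, adjusted p = 1.72e-05) had the smallest P of the 48 genes. Parp9 stayed between 10.5 and 16.7 CPM in the 6 libraries of 1 and 2 dpi and between 33.7 and 46.5 CPM in the 6 libraries of 4 and 7 dpi. Its log2FC at 4 against 2 dpi was 1.73 ± 0.20. Parp14 had the smallest rise of the 37 genes (1.08, not called without 4 dpi replicate 3) and its highest mean at 7 dpi.

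The Ifi200 family, a cluster of genes for DNA-binding HIN and pyrin domain proteins on chromosome 1, was marked by the fall at 2 dpi. Of its 6 members, 5 fell at 2 against 1 dpi and the same 5 rose at 4 against 2 dpi; the comparisons share the libraries of 2 dpi. Ifi205 had 34.7, 26.8 and 60.7 CPM at 1 dpi, 8.79, 5.43 and 6.16 at 2 dpi, 25.1, 15.1 and 23.9 at 4 dpi and 17.3, 11.3 and 19.4 at 7 dpi. It fell by 2.58 ± 0.32 (adjusted p = 8.67e-05) at 2 against 1 dpi, the largest fall of the list, rose by 1.65 at 4 against 2 dpi and was downregulated at 7 against 1 dpi (-1.35 ± 0.30, adjusted p = 0.00158, not called without 1 dpi replicate 3). Ifi203 fell by 1.64 and rose by 2.34, with 23.7, 12.9 and 13.8 CPM at 2 dpi, against 42.3, 37.1 and 78.2 at 1 dpi, and 59.8, 86.25 and 110 at 4 dpi. Ifi209 had 58.5, 32.2 and 57.2 CPM at 1 dpi, 23.8, 15.9 and 16.4 at 2 dpi, 73, 72.4 and 99.2 at 4 dpi and 77.3, 63.5 and 68.1 at 7 dpi, and its rise at 4 against 2 dpi was 4.36-fold (2.12 ± 0.24, adjusted p = 2.84e-05). Ifi204, whose protein senses DNA upstream of STING, fell by 1.28 and rose by 1.25, and Ifi211 fell by 1.06 and rose by 1.26. Ifi207 stood apart, with 139 to 250 CPM in all 12 libraries and no call in any comparison (log2FC -0.20 to 0.38). Apart from Ifi205, no member of the family was called at 7 against 1 dpi.

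Bst2 (tetherin), which holds budding virus particles at the cell surface, and Ifitm3, which blocks virus fusion in endosomes, moved in opposite directions. Ifitm3 had 348, 357 and 399 CPM at 1 dpi, 164, 131 and 151 at 2 dpi, 246, 121 and 209 at 4 dpi, and 222, 133 and 139 at 7 dpi. It fell by 1.31 ± 0.25 at 2 against 1 dpi (adjusted p = 0.00267) and was lower at 7 than at 1 dpi by 1.16 ± 0.25 (adjusted p = 0.00121), with no overlap of the groups in either. Bst2 had 15.2, 17.2 and 19.1 CPM at 1 dpi, 33.65, 31.3 and 35.6 at 2 dpi, 47.7, 27.1 and 46.9 at 4 dpi, and 53.2, 35.55 and 45.5 at 7 dpi. It was the 1 gene of the 48 with all libraries of 2 dpi above those of 1 dpi, which was the case for 20.9% of all genes. Its log2FC there was 0.96 ± 0.22 (adjusted p = 0.00861, just under the fold threshold), and it was upregulated at 7 against 1 dpi (1.38 ± 0.22). Neither gene was called at 4 against 2 dpi, where they had 0.28 (Bst2) and 0.37 (Ifitm3). Of the list, Ifitm3 also made up 15.2% to 22.3% of the counts at 1 dpi and 4.2% to 7% at 4 dpi.

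Trim30a and Trim30d, neighbours on chromosome 7 from a mouse TRIM family that restrains NF-kappaB signalling in the case of Trim30a, both rose at 4 against 2 dpi. Trim30a had 106, 93.2 and 132.5 CPM at 4 dpi, against 51.2, 38.4 and 38.8 at 2 dpi (1.37 ± 0.22, adjusted p = 0.000466). At 7 dpi it had 116, 86.8 and 93.5 CPM, just above the 76.5, 51.1 and 85.8 CPM of 1 dpi, and was not called (0.47, adjusted p = 0.0797). Trim30d fell by 1.24 at 2 against 1 dpi and rose by 1.24 at 4 against 2 dpi.

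Of the remaining 12 genes, 8 rose at 4 against 2 dpi. Ifi44, whose protein is induced by interferon, had 0, 0 and 0.369 CPM at 1 dpi (0, 0 and 8 counts), 0.977, 0.199 and 0.43 at 2 dpi, 11.2, 9.32 and 18.5 at 4 dpi and 16.2, 8.26 and 12.6 at 7 dpi. It rose 23.4-fold at 4 against 2 dpi (4.55 ± 0.56, adjusted p = 5.25e-05). At 7 against 1 dpi its fitted log2FC of 6.47 ± 0.70 was the largest of the list, but it rests on the 8 counts of 1 library. Lgals3bp had 514, 490.1 and 744 CPM at 4 dpi, against 158, 131 and 148 at 2 dpi (2.00 ± 0.26, adjusted p = 6.57e-05), and 543, 352 and 583 at 7 dpi, against 95.2, 82 and 142 at 1 dpi (2.21 ± 0.26). Epsti1, with 56.4, 57 and 61.7 CPM at 4 dpi and 24.6, 19.9 and 20 at 2 dpi, had the smallest standard error of the 48 genes (1.44 ± 0.17, adjusted p = 4.67e-05).

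Helz2, a nuclear receptor coactivator, had 57.4, 33.4 and 55.2 CPM at 1 dpi, 12.2, 11.8 and 12.3 at 2 dpi, 24.1, 12.8 and 25.2 at 4 dpi and 15.6, 15.3 and 14.2 at 7 dpi. It fell by 2.00 ± 0.25 (adjusted p = 0.00011) at 2 against 1 dpi, and at 7 against 1 dpi by 1.69 ± 0.25 (adjusted p = 4.58e-05), with no overlap. Isg20, a 3′-5′ exonuclease, fell by 1.02 at 2 against 1 dpi and rose by 1.59 at 4 against 2 dpi, and its fall was lost in 6 of the alternative fits. Rtp4, Xaf1, Phf11d and Ifi27l2a rose at 4 against 2 dpi by 1.88, 1.74, 1.71 and 1.45. Ifi27l2a was then lower at 7 than at 4 dpi (-0.79 ± 0.21, adjusted p = 0.0125, under the fold threshold), with 25.8, 29.7 and 37.1 CPM at 7 dpi and 49.5, 51.3 and 59.4 at 4 dpi. Ifi35, Samd9l and Sp100, a nuclear body protein, did not pass at 4 against 2 dpi (0.33, 0.80 and 0.89). Samd9l was upregulated at 7 against 1 dpi with 1.01 ± 0.22, a call that was lost in 7 of the alternative fits.

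**Figure D4:**
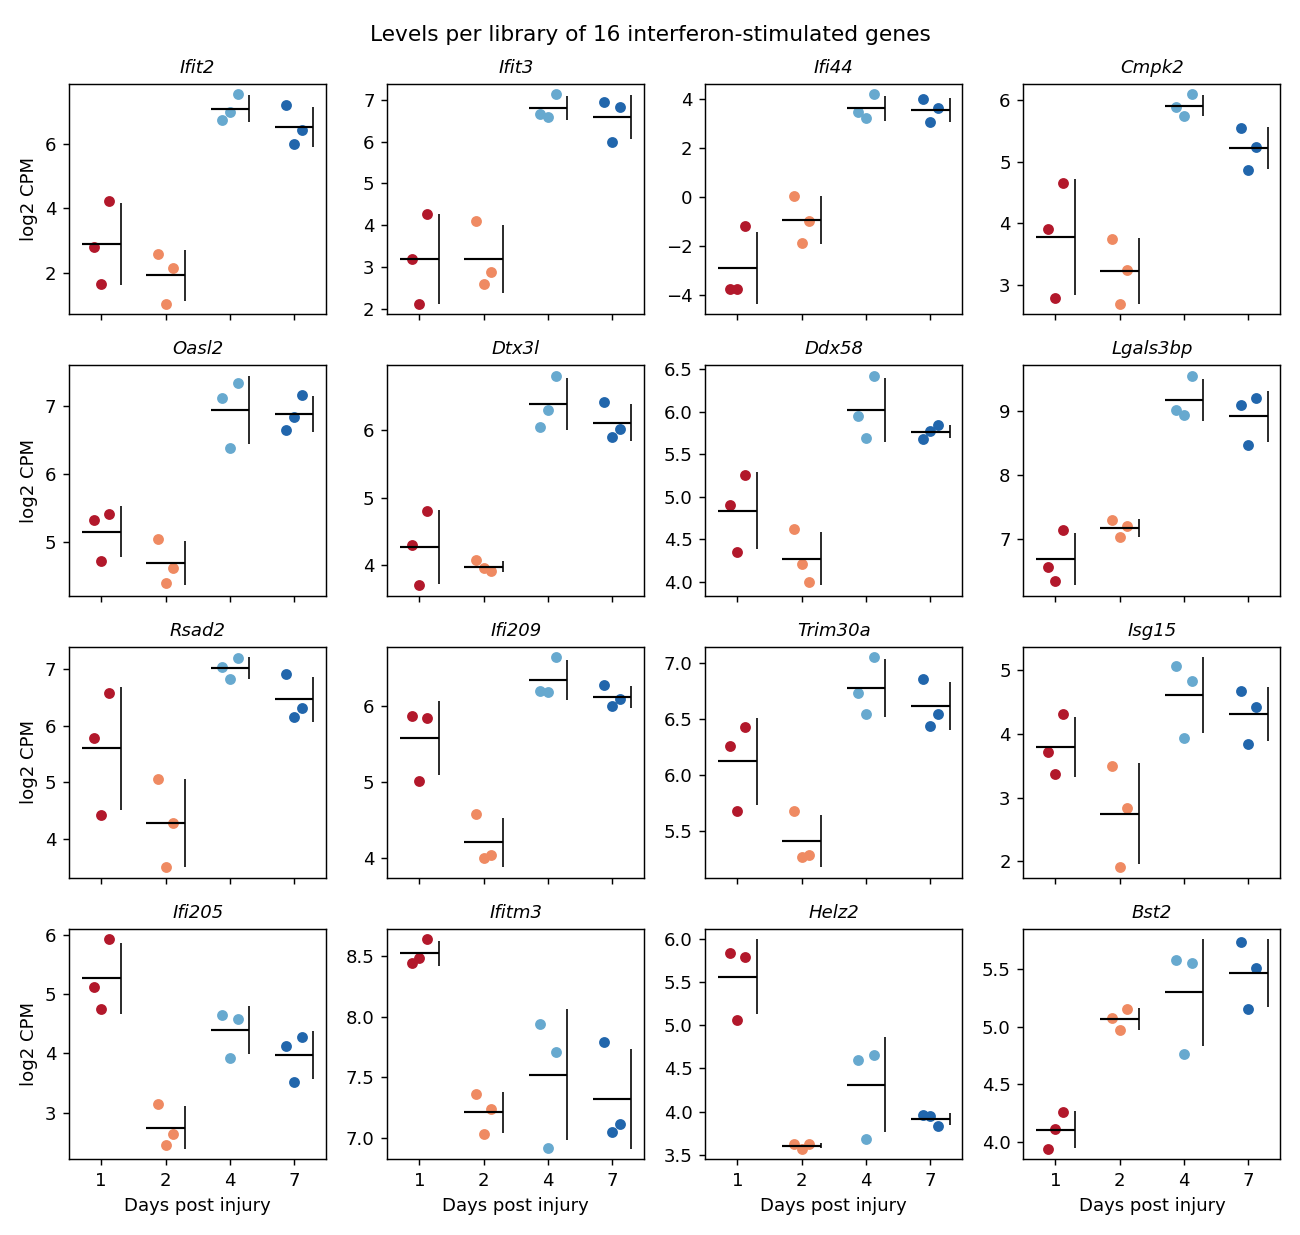
log2 CPM of 16 interferon-stimulated genes in each library (points) at 1, 2, 4 and 7 dpi, with the mean (horizontal line) and SD (vertical line, n = 3 per time point); each panel has its own scale. In the upper 2 rows the 4 and 7 dpi libraries lie above those of 1 and 2 dpi, and in the bottom row Ifi205, Ifitm3 and Helz2 are highest at 1 dpi while Bst2 is lowest there.

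Within a time point the genes tended to be high or low in the same library. At 1 dpi replicate 2 had the lowest value of the 3 libraries for 42 of the 48 genes, and replicate 3 the highest for 34. At 2 dpi replicate 1 had the highest value for 43 genes, and at 4 dpi replicate 2 had the lowest for 38. The median log2 CPM over the genes was 4.18 to 4.96 at 1 dpi, 3.60 to 4.33 at 2 dpi, 5.29 to 5.66 at 4 dpi and 5.30 to 5.52 at 7 dpi, so the highest library of 2 dpi lay above the lowest of 1 dpi. Genes of 1 library share its cells and its scaling, so these counts are a description.

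The ligands that were looked up were hardly seen. Of 10 interferon genes looked up, 8 had 0 counts in all 12 libraries (Ifna1, Ifna2, Ifna4, Ifna5, Ifne, Ifng, Ifnl2 and Ifnl3), where 3 counts would be 0.081 to 0.236 CPM in a library. This limit covers counting error only. Interferon alpha genes other than those named were not looked up. How reads that fit several genes were counted is not given, so the zeros do not show that these transcripts were absent. Ifnb1 had 18 counts in all, of which 16 were at 1 dpi (0.314, 0.164 and 0.369 CPM) and 2 at 2 dpi, and none was seen at 4 or 7 dpi. Ifnk had 80 counts spread over 9 libraries and was not called in any comparison. The receptor genes were expressed at all time points. Ifnar1 averaged 122 ± 12 CPM at 1 dpi and 111 ± 14.2 CPM at 2 dpi, then 66.1 ± 16.6 CPM at 4 dpi and 89.4 ± 25.2 CPM at 7 dpi (SD, n = 3 each), and Ifnar2 averaged 86.3 ± 18.3, 54.2 ± 2.63, 73.3 ± 8.89 and 71.8 ± 2.88 CPM on these days. Neither was called in any of the 4 comparisons, nor were Ifngr1, Ifngr2, Jak1 and Tyk2. The kinase gene Jak2 was upregulated at 7 against 4 dpi (log2FC 1.31). Ifnar1 was lower at 4 than at 2 dpi by 0.75 ± 0.22 on the log2 scale (adjusted p = 0.0248), under the fold threshold.

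Some factors of the pathway were also higher at 4 against 2 dpi. Stat2, Irf7 and Irf8 rose. Stat2 had 25.2, 25.4 and 37.2 CPM at 4 dpi, against 10.7, 7.42 and 7.06 CPM at 2 dpi (1.80 ± 0.26). Irf7, the factor that amplifies interferon production, had 73.4, 46.2 and 119 CPM at 1 dpi, 43.6, 24 and 35.8 at 2 dpi, 290, 196 and 400.1 at 4 dpi and 336.5, 159 and 392 at 7 dpi. It fell at 2 against 1 dpi (0.435-fold, adjusted p = 0.0404) and rose by 3.10 ± 0.39 at 4 against 2 dpi (adjusted p = 5.94e-05). Irf9, the DNA-binding part of ISGF3, was not called (0.53, adjusted p = 0.0901), nor were Irf1, Irf2, Irf3 and Irf5.

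Of 12 tested genes of the pathways that induce interferon, 5 rose at 4 against 2 dpi and none fell. These were the endosomal receptors Tlr3 (2.11), Tlr7 (1.06) and Tlr9 (2.69), the adaptor Mavs (1.26) and the RNA-editing enzyme Adar (1.06), while Cgas, Sting1, Tbk1, Ikbke, Myd88, Ticam1 and Samhd1 were not called. At 7 against 1 dpi Mavs, Tlr3, Tlr7 and Tlr9 were upregulated, while Ikbke and Myd88 were downregulated (-1.52 and -1.37). Of the 5 negative regulators listed apart from Usp18, edgeR called 0 at 4 against 2 dpi. Their log2FC were above 0 in 4, 2 of them at an unadjusted P under 0.05 (Socs3, 0.90, and Pias1, 0.42), and below 0 in Ptpn2 (-0.62, adjusted p = 0.0213). Socs1 (0.437-fold) and Ptpn2 (0.379-fold) were downregulated at 7 against 1 dpi. Trex1 was listed at 0 in all libraries, and whether its reads were lost in counting was not tested. Most genes listed as responding strongly to interferon gamma were also higher at 4 dpi. Of the 9 tested, 8 rose, among them Gbp2 (4.25), Ciita (5.00) and Cxcl9 (5.22). Nos2 was lower (-2.32, unadjusted P under 0.05, not called), with 12, 32 and 22 counts at 2 dpi and 4, 4 and 6 at 4 dpi. The median log2FC of the 9 was 3.43, while the transcript of Ifng itself was at 0. Of 4 chemokines, Cxcl10 and Cxcl11 rose and Ccl12 fell. Cxcl10 rose by 2.79 and Ccl12 fell by 2.02 on the log2 scale, while Cxcl11 had 16, 8 and 12 counts at 4 dpi, against 0 in all 3 libraries of 2 dpi. At 7 against 4 dpi Irgm1 fell by 1.43 and Ciita rose by 1.37.

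**Figure D5:**
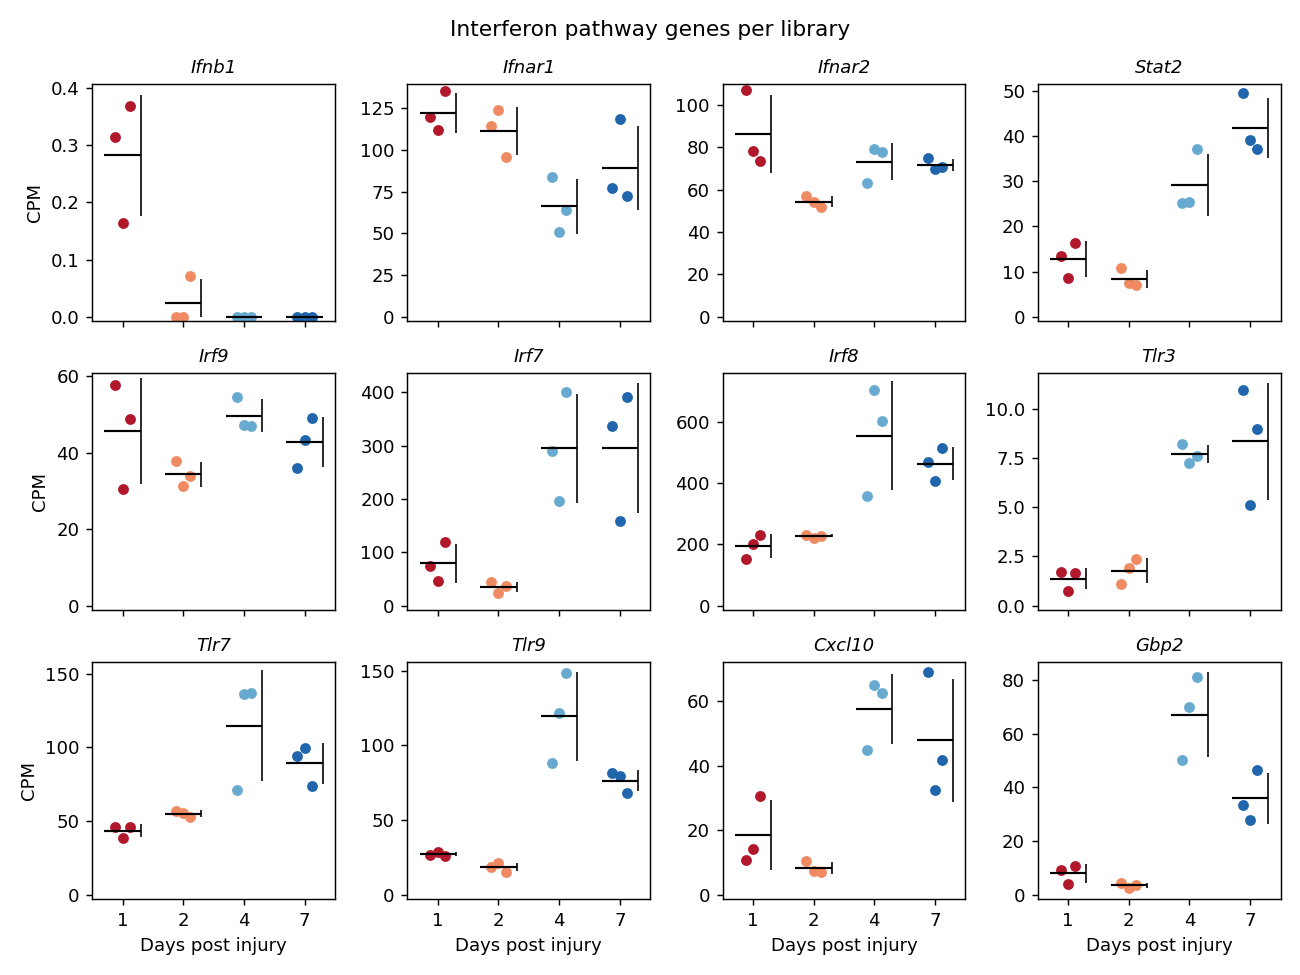
CPM per library (points) of 12 genes of the interferon pathway at 1, 2, 4 and 7 dpi, with the mean (horizontal line) and SD (vertical line, n = 3 per time point); each panel has its own scale starting at 0. Ifnb1 is under 0.4 CPM throughout and at 0 from 4 dpi, Ifnar1 and Ifnar2 were not called, and Stat2, Irf7, Irf8, Tlr3, Tlr7, Tlr9, Cxcl10 and Gbp2 were upregulated at 4 against 2 dpi.

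Relatives of these genes that the list leaves out were also looked up. Of 29 such genes 27 were in the table and 20 were tested. At 4 against 2 dpi 9 rose and none fell, and at 2 against 1 dpi 10 fell and 1 (Herc3) rose. In the Ifi200 cluster Ifi206, Ifi208, Ifi213 and Mndal rose at 4 against 2 dpi, and all 4 were also upregulated at 7 against 1 dpi, whereas of the listed members of that cluster none was. Ifi208 had 14.4, 12.2 and 18.3 CPM at 4 dpi, against 1.05, 0.398 and 0.573 at 2 dpi. Ifit1bl1 had 13.3, 15.2 and 17.8 CPM at 4 dpi and 1.35, 1.29 and 1.43 at 2 dpi (an 11.3-fold rise), and unlike the 4 listed IFIT genes it was called at 7 against 4 dpi, where it fell by 2.03 ± 0.30 to 3.89, 2.46 and 4.97 CPM at 7 dpi. The difference from the listed genes was not tested. Ifitm1, Ifitm2 and Ifitm6 fell at 2 against 1 dpi and were lower at 7 than at 1 dpi, as was Ifitm3. Ifitm1 was upregulated at 7 against 4 dpi, with 14, 3 and 6 counts at 4 dpi and 34, 64 and 20 at 7 dpi. Ifitm6 had 0.594, 1.32 and 0.735 CPM at 7 dpi, against 15.6, 19.9 and 20.2 at 1 dpi.

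Markers of other cell types were read in the same libraries. The macrophage markers Adgre1 (F4/80), Fcgr1 (CD64) and Cd68 were present in all 12, with 245 to 779, 118 to 525 and 338.5 to 1004 CPM. The 8 T and NK cell markers, with Cd3e among them, were each under 1 CPM in all libraries, and 4 of the 5 B cell markers were too. Summed CPM of the 6 monocyte markers was 3225 to 4844 at 1 dpi and 754 to 902 at 2 dpi. It was 363 to 469 at 4 dpi and 160 to 273 at 7 dpi, so the sum was lower at each later time point. Its members differed. Vcan and Chil3 had fewer counts in each library of 4 dpi than in any of 2 dpi. Ly6c2 had 578, 339 and 644 counts at 2 dpi and 1433, 370 and 900 at 4 dpi. Plac8 had 394, 324 and 358 counts at 2 dpi and 972, 146 and 392 at 4 dpi. The 7 neutrophil markers summed to 128 to 298 CPM at 1 dpi, 60 to 99.5 at 2 dpi, 72.3 to 146 at 4 dpi and 43 to 157 at 7 dpi. Csf3r and Mmp9 made up nearly all of the later sums. S100a8, a defining neutrophil marker, had 38.7, 16.8 and 10.6 CPM at 1 dpi, 2.55, 4.98 and 3.66 at 2 dpi, 1.09, 0.444 and 0 at 4 dpi and 0 in all 3 libraries of 7 dpi, and Ly6g was under 1 CPM in all 12 libraries. The 8 markers of plasmacytoid dendritic cells, known as a source of interferon alpha, summed to 63 to 72.6 CPM at 1 dpi, 62.1 to 76 at 2 dpi, 72.2 to 103 at 4 dpi and 113 to 207 at 7 dpi. Tcf4 and Il3ra made up most of these sums, and Klk1, Ly6d and Pacsin1 were under 1 CPM in all 12 libraries. Their defining marker Siglech was at most 0.0821 CPM before 4 dpi, 0.0605, 1.15 and 0.439 CPM at 4 dpi and 1.56, 4.59 and 1.98 at 7 dpi. The 5 fibroblast markers summed to 11.9 to 40.1 CPM at 1 dpi and 20.4 to 33.7 at 2 dpi. Their sums were 102 to 190 at 4 dpi and 308 to 582 at 7 dpi, where Col1a1 and Col1a2 made up most of them. The 6 markers of conventional dendritic cells summed to 4.66 to 14.5 CPM at 1 dpi, 2.85 to 4.68 at 2 dpi, 6.39 to 8.96 at 4 dpi and 8.1 to 25.8 at 7 dpi, which was also lowest at 2 dpi, and Clec9a was under 1 CPM in all libraries. The 5 muscle fibre markers summed to 6.09 to 14.6 CPM at 1 dpi, 5.72 to 8.75 at 2 dpi, 10.4 to 19 at 4 dpi and 39.6 to 98.1 at 7 dpi. The 5 nonclassical monocyte markers summed to 33.4 to 38.5 CPM at 1 dpi and 19.6 to 29.2 at 2 dpi. Their sums were 27.7 to 33.6 at 4 dpi and 27.4 to 37.3 at 7 dpi, so the lowest sum was again at 2 dpi. The 5 endothelial markers summed to 25.9 to 32.7, 26.2 to 46.9, 20.6 to 33.2 and 36.7 to 86.9 CPM at 1, 2, 4 and 7 dpi. The 3 erythroid markers summed to at most 6.85 CPM in any library. The part of these cells in the changes of the interferon-stimulated genes was not tested.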

How the data were processed

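Libraries were made by Smart-seq2/3, whose cDNA does not keep the strand. Before deposit, the authors used Trim Galore 0.6.6 for trimming, HISAT2 2.2.1 for alignment to GRCm39 and Subread 2.0.1 for counting. Their deposited values are raw counts of reads per gene in 12 columns. Gene symbols and lengths were looked up by Ensembl ID in a GRCm38 annotation.

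From these counts, filterByExpr left 14310 genes, and edgeR 4.0.16 (R 4.3.3) fitted all libraries together with TMM factors and a term for each time point. Log2 CPM used a prior count of 2. The genes and lists were chosen with earlier results of these data known, so their counts are descriptions. Values per library are given for the gene of smallest P in each role group at 4 against 2 dpi, for the 4 largest rises and falls among the calls, for genes that went against their group, and for others chosen after their values were seen. A factor of the pathway is not reported here. Alternatives were RLE factors, DESeq2 1.42.0, limma-voom (limma 3.58.1), 2 other filters, a fit of the compared libraries alone, a replicate block, no fold threshold, removal of the unnamed gene, a prior count of 0.5, and each library left out in turn.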

Additional observations from a re-analysis of the deposited data

How the results depend on the processing

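No count of upregulated or downregulated interferon-stimulated genes changed direction. Upregulated genes at 7 against 4 dpi numbered 1 with RLE factors, with no low-count filter, with limma-voom, with the compared libraries alone and with no fold threshold, and 2 with DESeq2, against 0 in edgeR. At 2 against 1 dpi 1 gene was upregulated with no low-count filter (Ifi44) and 1 with no fold threshold (Bst2), and with no fold threshold 2 genes were lower at 7 than at 4 dpi. With each library left out in turn, 0 to 2 genes were up and 7 to 20 down at 2 against 1 dpi, with a median log2FC of -0.961 to -0.442. At 7 against 4 dpi 0 to 1 genes were up, with a median of -0.361 to -0.066, and at 7 against 1 dpi the median was 0.655 to 1.16. The cause of these changes was not tested. Of the 73 calls, 60 were kept in every alternative.

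Deviations of same-numbered libraries from their group means gave 12 correlations of -0.133 to 0.127, against 24 of -0.221 to 0.265 for other numbers. The labels do not say whether the numbers pair libraries, and these correlations cannot decide it. With a replicate block, 15 genes were down at 2 against 1 dpi and 1 was up at 7 against 4 dpi. A prior count of 0.5 in place of 2 gave a median difference in log2 CPM of 1.747 in place of 1.739 at 4 against 2 dpi. Depth limits Ifi44, Mx2 and Ifnb1, which had few counts on the first days.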
